A study of Mus musculus with 13 samples.

Results

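The immature CD4 lineage thymocytes described here are 702 cells out of 58756 thymic cells, and out of 148709 cells in the 2 split-pool (Parse) libraries of the series. They were chosen by their own UMI counts. A UMI (unique molecular identifier) marks 1 RNA molecule that was read in 1 cell. A member held 3 or more UMIs of Zbtb7b, Cd40lg and Chl1 together, no UMI of Runx3 or Itgae, no UMI of S1pr1 or Klf2, at most 1 UMI of Mki67 and Top2a, no UMI of Foxp3 and at most 2 UMIs of Tnfrsf9, Arhgap20, Ikzf2 and Nr4a3. Only cells with 500 to 25000 UMIs entered. Levels of these 14 genes describe the choice and were not tested.

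The tissue was whole thymus of 2-month-old female C57BL/6N mice, which were neither sorted nor genetically altered. Each kit was run on the 4 thymic lobes of 2 mice. The Mini kit was a repeat experiment for which the paper reports a separate isolation of thymus. The kit therefore cannot be told apart from the mice and the experiment. WT here names the whole-transcriptome kit and not a genotype. The lobes gave WT samples 1 to 4, with 70, 118, 109 and 151 members, and Mini samples 1-A, 1-B, 2-A and 2-B, with 59, 57, 50 and 88 members. In both kits cells were fixed and barcoded in several rounds of pooling and splitting over wells, so that the first-round well names the sample of a cell. Which lobes belong to 1 mouse is not stated by the labels. The paper names mice by letter and lobes by number in its main experiment. Whether the Mini names, which hold a number and a letter, follow this is not stated. All lobes entered as separate samples. The p-values below therefore rest on how far the difference between classes varied from lobe to lobe. They can be smaller than p-values over animals would be, which were not computed. Apart from the kit, the labels give no condition that differs between these 8 samples. The comparisons are between classes of cells from the same lobes.

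In the thymus, double-positive (DP) thymocytes carry both coreceptors CD4 and CD8 and rearrange the T cell receptor alpha locus with the recombinase Rag1 and Rag2. A cell whose receptor binds self-peptide on MHC is signalled to survive, ends rearrangement and chooses a lineage. Zbtb7b encodes ThPOK, the factor that commits cells to the CD4 helper lineage, and it stands against Runx3, the factor of the CD8 lineage. Cd40lg encodes CD40 ligand, the contact signal of helper cells to B cells and dendritic cells. Chl1 encodes a cell adhesion molecule of the L1 family. Selected cells move from cortex to medulla, mature there, and leave through S1pr1, a receptor for sphingosine-1-phosphate that Klf2 induces. Absence of S1pr1 and Klf2 is taken here as the mark of cells before that step.

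Beyond the chosen genes, Itm2a, Ccr4 and Izumo1r were among the genes with the largest differences between these cells and the other thymic cells. The sequences 250 bases upstream of their RefSeq start sites are shown so that these genes can be located and read. Itm2a encodes an integral membrane protein of maturing thymocytes, Ccr4 a chemokine receptor that guides cells to the medulla, and Izumo1r folate receptor 4. All coordinates are of GRCm38.p6, all 3 genes lie on the minus strand, and each sequence is written 5′ to 3′ along that strand. Capitals mark E-boxes (CANNTG), which E proteins and their relatives can bind, and the TCF/LEF letters CTTTGA or TCAAAG, the latter being the same motif on the other strand.
Itm2a, chrX:107403361-107403610: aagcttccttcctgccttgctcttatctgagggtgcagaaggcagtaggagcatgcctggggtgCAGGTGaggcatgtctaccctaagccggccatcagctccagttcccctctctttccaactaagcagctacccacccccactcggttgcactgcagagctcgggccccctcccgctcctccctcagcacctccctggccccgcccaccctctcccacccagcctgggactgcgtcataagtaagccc
Ccr4, chr9:114496545-114496794: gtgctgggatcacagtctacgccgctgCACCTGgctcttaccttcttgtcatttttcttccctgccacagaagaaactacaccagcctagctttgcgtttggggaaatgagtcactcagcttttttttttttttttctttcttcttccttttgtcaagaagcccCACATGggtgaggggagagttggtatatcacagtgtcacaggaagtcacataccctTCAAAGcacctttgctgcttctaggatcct
Izumo1r, chr9:14903768-14904017: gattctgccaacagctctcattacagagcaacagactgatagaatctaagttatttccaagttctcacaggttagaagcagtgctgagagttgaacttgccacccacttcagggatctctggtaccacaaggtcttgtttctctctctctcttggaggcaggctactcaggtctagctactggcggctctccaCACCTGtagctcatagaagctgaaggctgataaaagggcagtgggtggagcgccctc
The Itm2a stretch held 1 E-box, the Ccr4 stretch 2 E-boxes and 1 TCF/LEF match, and the Izumo1r stretch 1 E-box. Of the 15 genes with the largest difference from the other cells, 13 had a RefSeq promoter. An E-box was present in 10 of the 13, against 66.0% of all 27025 promoters, and a TCF/LEF match in 2 of the 13, against 14.05% of all. The other letters searched on both strands were AGATAA for GATA factors (2 of the 13, against 10.3% of all), GTGGGCG for EGR factors (2 of the 13, against 7.06%), CCGGAA for ETS factors (1 of the 13, against 12.2%) and TGTGGT for RUNX factors (1 of the 13, against 14.2%). The Itm2a stretch also held 1 GATA match and the Izumo1r stretch 1 RUNX match, which are not in capitals. In addition the Itm2a stretch holds the letters CGCCCAC, which are GTGGGCG on the other strand. The EGR count missed this match, so the EGR numbers above may be too low and are not read further. Matches are a description of letters. GENCODE M21 places the gene bodies of Itm2a at chrX:107397099-107403376, of Ccr4 at chr9:114490316-114504916 and of Izumo1r at chr9:14885814-14903949. The Ccr4 stretch thus lies within the annotated gene body, and the Itm2a and Izumo1r stretches overlap theirs in part.

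Depth can bear on the values below, since a cell with more UMIs reaches 3 UMIs of any gene more easily. The members held a median of 3505.5 UMIs (2669 to 4577.5 over samples) and the other cells 3074.5, yet in WT samples 2 and 4, the 2 with the most cells, the members were shallower than the other cells (2669 against 2912 and 3458 against 3907 UMIs). Ribosomal RNA took 15.7% ± 5.57 (SD, n = 8) of the UMIs of the members and 17.9% ± 5.71 of the others, and mitochondrial genes 4.72% ± 0.821 and 5.37% ± 0.858. Both shares were lower in the members in all 8 samples. No barcode occurred in both kits. Levels are given in CPM, the UMIs of a gene in the summed cells of a class in a sample, scaled to 1000000 UMIs outside ribosomal RNA. CPM does not correct for gene length, so levels are compared between classes of cells and not between genes.

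Markers of other cell types were mostly lower in the members than in the other cells. The summed level of 10 dendritic and myeloid markers was 0 to 33.1 CPM (median 15.9) against 59.2 to 132 CPM (median 102) in the other cells, and Flt3 and Siglech were at 0. The 7 B cell markers summed to 32.2 to 132 CPM (median 72.4) against 90.6 to 296 CPM (median 143), and the 6 innate-like and gamma-delta T cell markers to 137 to 419 CPM (median 245) against 330 to 527 CPM (median 450.0), with Klrb1c at 0. Regulatory T cell markers summed to 51.7 to 181 CPM (median 115) against 150 to 180 CPM (median 170). In these 4 lists the median was lower in the members, without overlap between the samples for the dendritic and myeloid list. The rule itself kept out cells with a UMI of Foxp3, Runx3, Itgae, S1pr1 or Klf2. It also limited UMIs of Ikzf2, Mki67 and Top2a. The Runx3 or Itgae cells described below held dendritic and myeloid markers at 517 to 1464 CPM. The part of these conditions in the lower marker levels was not tested. The levels are thus no separate check that other cell types are absent from the members. The 8 epithelial and stromal markers, at 331 to 557 CPM (median 466) against 404 to 470 CPM (median 423), and the 8 double-negative cell markers, at 290 to 778 CPM (median 451) against 346 to 461 CPM (median 426), overlapped in their sums. Of the 8 double-negative markers 6 were called lower in the members (median log2 fold change -1.20) and 1, Il7r, higher. Of the 8 epithelial and stromal markers only Epcam and Pecam1 passed the filter on low counts. Epcam was called lower in the members and Pecam1 was not called. In the members without a Zbtb7b or Cd40lg UMI only Pecam1 and Col1a1 were read, and the sum was 273 to 511 CPM. The sum is thus mainly one of Pecam1. Foxn1, Krt5, Krt8 and Pdgfra were at 0 in the members, and Il7r is described below. The 5 erythroid markers summed to at most 9.03 CPM in the members and 10.9 CPM in the others.

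The label was set against the genes that chose the members. Itm2a, the one marker named with the label that the rule did not use, came from earlier results on the same cells, so its higher level in the members of all 8 samples is no check of the label. Zbtb7b and Cd40lg, the helper lineage genes, were each seen in a minority of the members. Of the 702 members, 658 (93.7%) held a Chl1 UMI, 225 (32.1%) a Zbtb7b UMI and 203 (28.9%) a Cd40lg UMI, and 360 (51.3%) were members through Chl1 alone. All 3 genes were read in 65 members (9.26%). Chl1 supplied 3074 of the UMIs that chose the members (81.2%), Zbtb7b 347 and Cd40lg 367. In the members the mean levels were 137 ± 55.8 CPM for Zbtb7b, 150.4 ± 23.8 CPM for Cd40lg and 1292 ± 149 CPM for Chl1 (SD, n = 8), and in the other cells 10.9 ± 2.5, 11.7 ± 1.45 and 51.5 ± 8.54 CPM. The choice is thus mainly of Chl1-rich cells, and the members with and without helper lineage UMIs are set against each other further on.

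The members made up a small share of the thymic cells in every lobe, which differed between lobes by more than counting error. Their share of the cells with 500 to 25000 UMIs was 1.28% ± 0.340 (SD, n = 8). The share rests on Chl1, since it was 0.214% when 3 UMIs of Zbtb7b and Cd40lg were asked for without Chl1, and it was 2.00% with 2 or more UMIs of the 3 genes. Whether Chl1 alone marks the CD4 lineage in thymus was not tested. By the rule the share was 1.24% ± 0.349 in the WT samples and 1.32% ± 0.378 in the Mini samples (n = 4 each), so the kits differed by less than the lobes within a kit. The lowest share was 0.993% in Mini sample 2-A (exact 95% binomial interval 0.738% to 1.31%) and the highest 1.85% in Mini sample 2-B (1.49% to 2.28%). WT sample 1, with 1.76% (1.38% to 2.22%), stood above the other WT samples, at 1.01%, 1.14% and 1.06%. Of its 2 first-round wells, C7 stood at 2.26% (1.65% to 3.01%) and C8 at 1.26% (0.818% to 1.86%), below the 1.37% and 1.36% of single wells of WT samples 3 and 4. Intervals cover counting error only. Over all 20 wells of the 8 samples the share ranged from 0.784% to 2.26%. WT sample 1 and Mini sample 2-B were also the samples whose members held the most UMIs, with medians of 4577.5 and 4018 UMIs, and among cells with 4000 UMIs or more the mean share over samples was 1.43%.

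**Figure D1:**
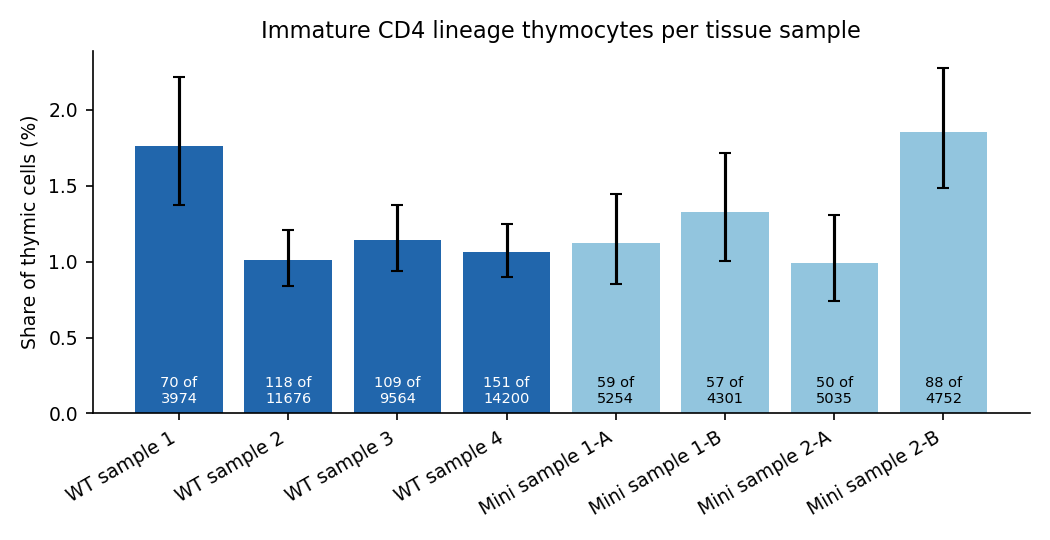
Share of immature CD4 lineage thymocytes among thymic cells (y axis, percent) in the 8 tissue samples (x axis), WT samples in dark and Mini samples in light blue, with exact 95% binomial intervals and the number of members and cells in each bar. WT sample 1 (1.76%) and Mini sample 2-B (1.85%) were the highest, and the other 6 samples lay between 0.993% and 1.33%.

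The conditions of the rule removed most Chl1-, Zbtb7b- or Cd40lg-rich cells. Of 2541 cells with 3 or more UMIs of these genes, 1250 (49.2%) had more than 2 UMIs of Tnfrsf9, Arhgap20, Ikzf2 and Nr4a3, genes of strongly signalled thymocytes, and 1154 (45.4%) more than 1 UMI of the proliferation genes Mki67 and Top2a. A UMI of Runx3 or Itgae was present in 645 (25.4%), of S1pr1 or Klf2 in 449 (17.7%) and of Foxp3 in 41 (1.61%), and a cell could fail several conditions. At the threshold, 236 members (33.6%) held exactly 3 UMIs, and 419 cells that met all other conditions held exactly 2.

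Cells just inside and just outside the threshold, with 3 and with 2 UMIs, differed little in some genes that the rule did not use and more in others. Itm2a stood at 34.4 CPM in cells with 0 UMIs of the 3 genes, 176 CPM with 1, 323 CPM with 2, 337 CPM with 3 and 505 CPM with 7 or more, over the pooled cells that met the other conditions. Tox, a factor that CD4 lineage cells need at selection, stood at 1444, 2900, 4364, 5001 and 6451 CPM in the same bins. Bcl2, which protects maturing T cells from death, stood at 243, 1074, 1556, 2143 and 3782 CPM. Ccr4 stood at 10.2, 41.0, 71.7, 120.7 and 117 CPM. By fold, each of these 4 genes climbed more between 0 and 2 UMIs than above, so the threshold lay on a gradient. Cd8a stood at 648, 413, 288, 276 and 206 CPM and Rag1 at 1486, 864, 666, 532 and 456 CPM, a fall that was also largest below the threshold. Cd4 stood at 875, 685, 669.7, 654 and 624 CPM. Between 3 and 7 UMIs the levels went up and down, with Rag1 at 611, 518 and 670.1 CPM, Cd8a at 263, 243 and 316 CPM, Cd4 at 609, 767 and 734 CPM and Tox at 4366, 5728 and 5086 CPM in the cells with 4, 5 and 6 UMIs. The median depth of the cells went from 1767 UMIs at 0 to 2746 at 2, 3209.5 at 3 and 3973 at 7 or more, and its part in the gradient was not tested.

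**Figure D2:**
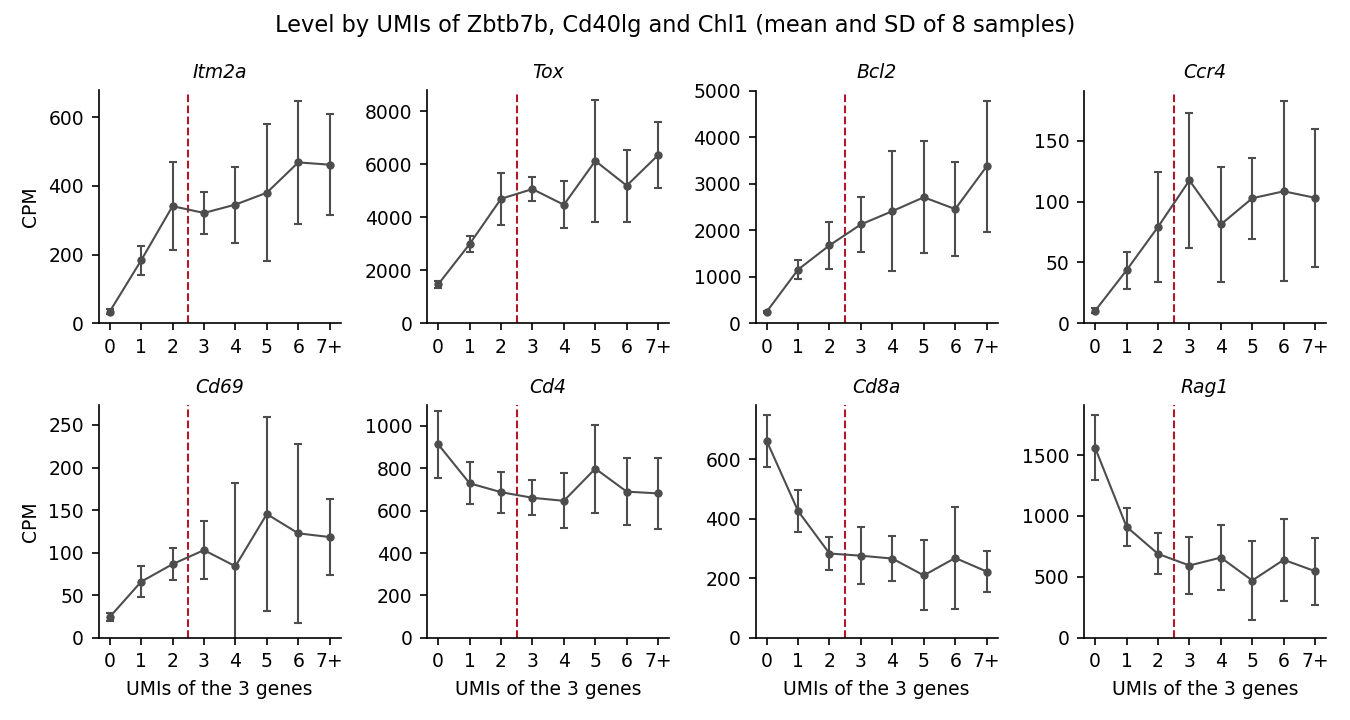
Level (y axis, CPM, mean and SD of 8 samples) of 8 genes in cells with 0 to 7 or more UMIs of Zbtb7b, Cd40lg and Chl1 (x axis) that met the other conditions of the rule, with the dashed line at the threshold of the members. Itm2a, Tox, Bcl2 and Ccr4 were lowest and Cd8a and Rag1 highest at 0 UMIs, and the bins at 2 and 3 UMIs lay within 1 SD of each other in 8 of 8 genes.

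Most members with coreceptor UMIs held Cd4, and many held Cd8 UMIs as well, among cells from which no doublets were removed. Cd4 UMIs without Cd8a or Cd8b1 were present in 226 members (32.2%, exact 95% interval 28.7% to 35.8%), both in 281 (40.0%, 36.4% to 43.8%), Cd8 alone in 46 (6.55%, 4.84% to 8.64%) and neither in 149 (21.2%, 18.3% to 24.4%). Among the other cells 10.4% held Cd4 alone, 58.7% both, 17.7% Cd8 alone and 13.2% neither. In DP cells, taken as 12715 cells with 3 or more UMIs of Rag1 and Rag2 and none of the lineage genes, 8.10% held Cd4 alone and 75.2% both, at a median of 2935 UMIs per cell. Runx3 and Itgae mark CD8 lineage cells, and the part of the condition on them in the Cd8 shares was not tested.

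The question of the main comparison was which genes set the members apart from the other cells of the same lobes. Of 12712 genes tested, 1072 (8.43%) were higher and 1859 (14.6%) lower in the members, 23.1% in all, at an adjusted p below 0.05 (edgeR quasi-likelihood test on summed UMIs, sample as block, Benjamini-Hochberg adjustment), and 2.32% were higher and 4.89% lower with no overlap between the 8 samples of each class. The median log2 fold change over all genes tested was -0.08. In the WT samples alone 766 genes were higher and 1301 lower, and in the Mini samples alone 518 and 989.

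Itm2a was among the largest differences. It measured 270.0 to 482 CPM (median 401) in the members and 47.3 to 64.7 CPM (median 53.2) in the other cells, so that the lowest member sample stood far above the highest of the others (log2 fold change 2.85 ± 0.0828). It was named as a marker of these cells from earlier results on the same data, and its level is not independent evidence for the label. An Itm2a UMI was found in 62.0% of the members, 13.7% of the other cells and 5.91% of the DP cells, and after thinning each cell to 1000 UMIs in 31.9%, 3.99% and 1.60%. The thinning made the number of UMIs read per cell equal, but the members were still those chosen at full depth. The part of depth in that choice was not tested. The log2 fold change was 2.77 in the WT samples and 2.92 in the Mini samples.

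Ccr4 followed. It measured 78.8 to 134 CPM (median 110.2) in the members and 13.8 to 18.4 CPM (median 15.4) in the others, again with no overlap (log2 fold change 2.77 ± 0.153). A Ccr4 UMI was read in 26.9% of the members and 4.87% of the others, or in 10.8% and 1.22% after the same thinning. Of the 15 genes with the largest differences, Prlr, the prolactin receptor, had the largest fitted value and ranged over samples from 6.57 to 110.4 CPM (median 49.9) against 3.93 to 7.78 CPM (median 5.26) (log2 fold change 3.14 ± 0.222), and it was the only one of the 15 whose classes overlapped. Chn2, which encodes a Rac-directed signalling protein, measured 247 to 777 CPM (median 404) against 58.5 to 86.1 CPM (median 67.4). Stk39, a kinase of the stress and ion transport pathways, measured 340.0 to 713 CPM (median 451) against 70.4 to 94.8 CPM (median 76.4). The mean levels were 6.48-fold and 6.25-fold higher, with no overlap for either gene. Izumo1r (2.61 ± 0.227), Hs3st3b1 (2.55 ± 0.177), Sytl2 (2.49 ± 0.100), Cap2 (2.47 ± 0.175), Gpr183 (2.43 ± 0.154), Tox2 (2.37 ± 0.180), Oxr1 (2.35 ± 0.0658), Maml2 (2.25 ± 0.0521) and Tacc2 (2.24 ± 0.0989) followed on the log2 scale. Gpr183 is the oxysterol receptor EBI2 and Maml2 a coactivator of Notch.

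The CD4 lineage regulators divided into groups that were higher and lower. Of 15 genes, all tested, 6 were higher and 5 lower (median log2 fold change 0.03). Tox measured 4506 to 6805 CPM (median 5368) in the members and 1401 to 1962 CPM (median 1814) in the others (log2 fold change 1.58 ± 0.0503). Lef1, a Wnt pathway factor that acts upstream of ThPOK, measured 2720.0 to 5478 CPM (median 3634) against 1167 to 1499 CPM (median 1403) (log2 fold change 1.47 ± 0.0510). Gata3, the factor needed for ThPOK expression, measured 229.8 to 372 CPM (median 287) against 122 to 151 CPM (median 138) (log2 fold change 1.07 ± 0.0780). For these 3 genes no member sample reached down to any sample of the others. Satb1 (0.50 ± 0.0489), Ets1 (0.21 ± 0.0513) and Socs1 (0.42 ± 0.139) were higher by less, and Ets1 and Socs1 lost their calls under several settings, as Tcf7 below did among cells with 4000 UMIs or more (-0.12, adjusted p = 0.248). Myb, an activator of Gata3, was lower (-0.93 ± 0.0601), as were Tcf12 (-0.55 ± 0.0532), Tcf7 (-0.23 ± 0.0529), Patz1 and Tcf3.

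Cd4 itself did not differ measurably, while Cd8 genes were lower. Cd4 measured 539 to 769.6 CPM (median 674) in the members and 459 to 767 CPM (median 660.0) in the others (log2 fold change 0.05 ± 0.0596, adjusted p = 0.599), with the members higher in 6 of 8 samples. The value changed with the depth of the cells used. It was -0.28 (adjusted p = 0.0186), with the sign turned, when each cell was thinned to 1000 UMIs, and 0.22 (adjusted p = 0.0234) among cells with 4000 UMIs or more. Cd8a measured 98.7 to 356 CPM (median 269) against 443 to 637 CPM (median 531) and was lower in all 8 samples with no overlap (log2 fold change -1.11 ± 0.0722), and its partner Cd8b1 was lower by less (log2 fold change -0.91 ± 0.0799). Of 13 CD8 and cytotoxic genes 8 were tested, and 3 were lower, the third being Il2rb. The rule kept out cells with a UMI of Runx3 or Itgae, and the part of that condition in the Cd8 difference was not tested.

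**Figure D3:**
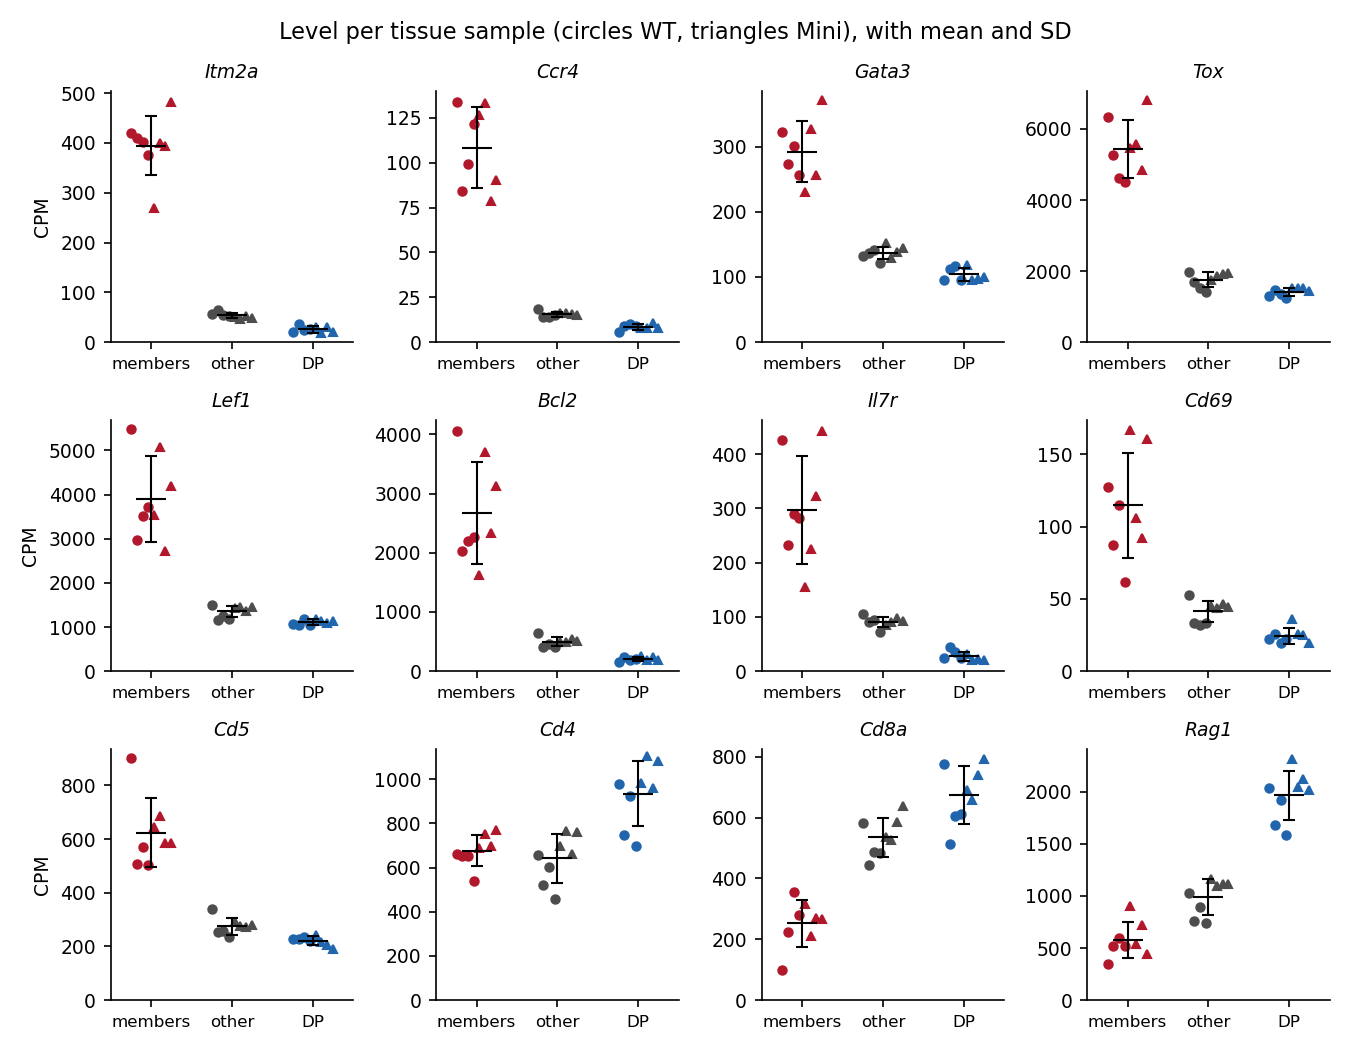
Level (y axis, CPM) of 12 genes in the members, the other cells and the rearranging DP cells (x axis), 1 point per tissue sample, circles for WT and triangles for Mini samples, with mean and SD. The 8 member samples lay above all samples of the other classes for Itm2a, Ccr4, Gata3, Tox, Lef1, Bcl2, Il7r, Cd69 and Cd5, below them for Cd8a, and among the other cells for Cd4.

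The genes of the DP stage were lower as a group. Of 14 genes 12 were lower and 1 higher (median log2 fold change -0.82). Rag1 measured 350.4 to 902 CPM (median 532) against 740.0 to 1165 CPM (median 1059.9) (log2 fold change -0.84 ± 0.0608), lower in all 8 samples but with overlap between the classes. Dntt, the template-free polymerase of V(D)J joining, measured 137 to 397 CPM (median 299) against 433 to 641 CPM (median 593), and Arpp21, an RNA-binding protein of DP cells, 1045 to 2924 CPM (median 2158) against 3526 to 4952 CPM (median 4504), both without overlap. Bcl2l1, a survival gene of DP cells, was lower too (log2 fold change -0.56 ± 0.0783). The exception was Ccr9, the receptor for the thymic chemokine CCL25, at 686 to 959.5 CPM (median 772) against 472 to 600.1 CPM (median 554) (log2 fold change 0.50 ± 0.0585).

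Genes that the T cell receptor induces were mostly higher. Of 14 genes 9 were higher and 1 lower (median 0.69). Cd69, which holds cells in the thymus, measured 61.6 to 167 CPM (median 111) against 32.1 to 52.4 CPM (median 43.9) (log2 fold change 1.42 ± 0.125). Cd5, a brake on receptor signalling whose level follows signal strength, measured 505 to 901 CPM (median 586) against 234 to 341 CPM (median 275) (log2 fold change 1.13 ± 0.0624). The immediate-early genes Egr2 (1.98 ± 0.338), Egr1 (1.27 ± 0.195) and Nr4a1 (0.60 ± 0.0776) and the Egr cofactor Nab2 (1.82 ± 0.191) were higher too. In the Mini samples alone Egr1 stood at 0.77 and lost its call (adjusted p = 0.169). Fos was lower (log2 fold change -0.68 ± 0.252, adjusted p = 0.0327), a call that 12 of 20 other settings did not keep. The related gene Nr4a3 was part of the rule, which limits how far strongly signalled cells could enter. Of the receptor complex and its signalling chain, 7 of 18 genes were higher and 3 lower, among them Prkcq (0.82 ± 0.0549) and Trac (0.61 ± 0.0868) higher and Themis (-0.46 ± 0.0502) and Lck (-0.26 ± 0.0646) lower. Lck lost its call in the WT samples alone (adjusted p = 0.0657) and among cells with 4000 UMIs or more (-0.14, adjusted p = 0.277), and Trac with thinning to 1000 UMIs (0.32, adjusted p = 0.171).

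Bcl2 and Il7r were higher, while other maturation genes went both ways. Bcl2 measured 1620.3 to 4058 CPM (median 2304) in the members and 413 to 641 CPM (median 492) in the others (log2 fold change 2.36 ± 0.0535), and Il7r, the receptor chain for interleukin-7, 155 to 443 CPM (median 286) against 72.4 to 105 CPM (median 91.4) (log2 fold change 1.69 ± 0.0822). Both were higher in all 8 samples without overlap. Of 12 Bcl2 family genes 2 were higher, Bcl2 and the pro-death gene Bbc3 (1.03 ± 0.210), and 4 lower, Bcl2l1, the pro-death genes Bcl2l11 (-0.66 ± 0.0717) and Bmf, and Bid. Bbc3 lost its call in the Mini samples alone (0.88, adjusted p = 0.111). Of 20 maturation genes 9 were higher and 7 lower. Gimap4 (1.20 ± 0.107), Gimap6 (0.85 ± 0.0793) and Ccr7, the receptor that draws cells into the medulla (0.57 ± 0.112), were higher. The late genes Ly6e (-1.43 ± 0.108), Ifngr1 (-0.97 ± 0.0775) and H2-K1 (-0.50 ± 0.150) were lower, the last with a call that 3 of 20 other settings did not keep. Maturation genes therefore did not move as 1 block in this comparison.

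Costimulation genes were higher in 6 and lower in 2 of 14 tested. Btla, an inhibitory receptor, measured 177 to 327 CPM (median 193) against 41.6 to 73.9 CPM (median 52.4) (log2 fold change 1.97 ± 0.0985) and Cd2, an adhesion receptor, 194 to 312 CPM (median 239) against 73.2 to 100.2 CPM (median 80.2) (log2 fold change 1.51 ± 0.0893). Tnfsf11, which encodes RANKL, the ligand through which CD4 thymocytes foster medullary epithelium, measured 59.1 to 138 CPM (median 101) against 30.4 to 68.5 CPM (median 45.1) (log2 fold change 1.13 ± 0.126). Icos (0.94 ± 0.132) and Cd28 (0.52 ± 0.0598) were higher by less, and Ctla4 was lower (-0.48 ± 0.136), a call that 3 of 20 other settings did not keep. Of 16 NF-kB pathway genes 4 were higher, among them Malt1 (0.63 ± 0.102), Nfkb1 (0.44 ± 0.0748) and Rel, and 1 lower. Nfkb1 lost its call among cells with 4000 UMIs or more (0.22, adjusted p = 0.114). Of 15 migration genes tested 6 were higher, led by Ccr4 and Gpr183, and 5 lower, among them Cxcr4, the cortical retention receptor (-1.16 ± 0.149), Selplg (-0.92 ± 0.0855) and Itga4 (-0.73 ± 0.0756).

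Of 21 cytokine receptor and signalling genes tested 7 were higher and 4 lower, with the interferon-gamma receptor chains on opposite sides, Ifngr2 at 1.14 ± 0.0772 and Ifngr1 lower. Effector cytokines of helper cells were not measurable, since Il2, Il4, Ifng, Il17a, Il21 and Il10 fell below the filter on low counts, and of 5 helper effector genes tested Bcl6 (-0.64 ± 0.101) and Maf (-1.67 ± 0.499) were lower, the call for Maf being lost in 3 of 20 other settings. Of 14 cell cycle genes 12 were lower and 1, Ccnd2, was higher (log2 fold change 0.98 ± 0.0981). The rule kept out cells with more than 1 UMI of Mki67 and Top2a, and the part of that condition in the cell cycle count was not tested. Against the DP cells, which were held to the same condition, 2 of 10 cell cycle genes tested were higher in the members and 1 lower (median log2 fold change 0.19). The low cell cycle genes are thus not read as a trait of the members. The 10 genes with the largest fitted differences downward held 0 UMIs in the members, among them Flt3, Siglech, Csf2rb and Il1r2 of myeloid and dendritic cells. With 0 UMIs the fitted values depend on the prior count, so their size is not ranked here. They passed the filter on low counts through the other cells alone, whose summed UMIs are far more, and were picked by their fall. Their 0 UMIs are therefore in part a result of that choice and no separate evidence on the members. In the other cells they measured 3.77 to 10.95 CPM, which is 3.06-fold to 8.90-fold a floor set by hand at 3 UMIs over all members.

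**Figure D4:**
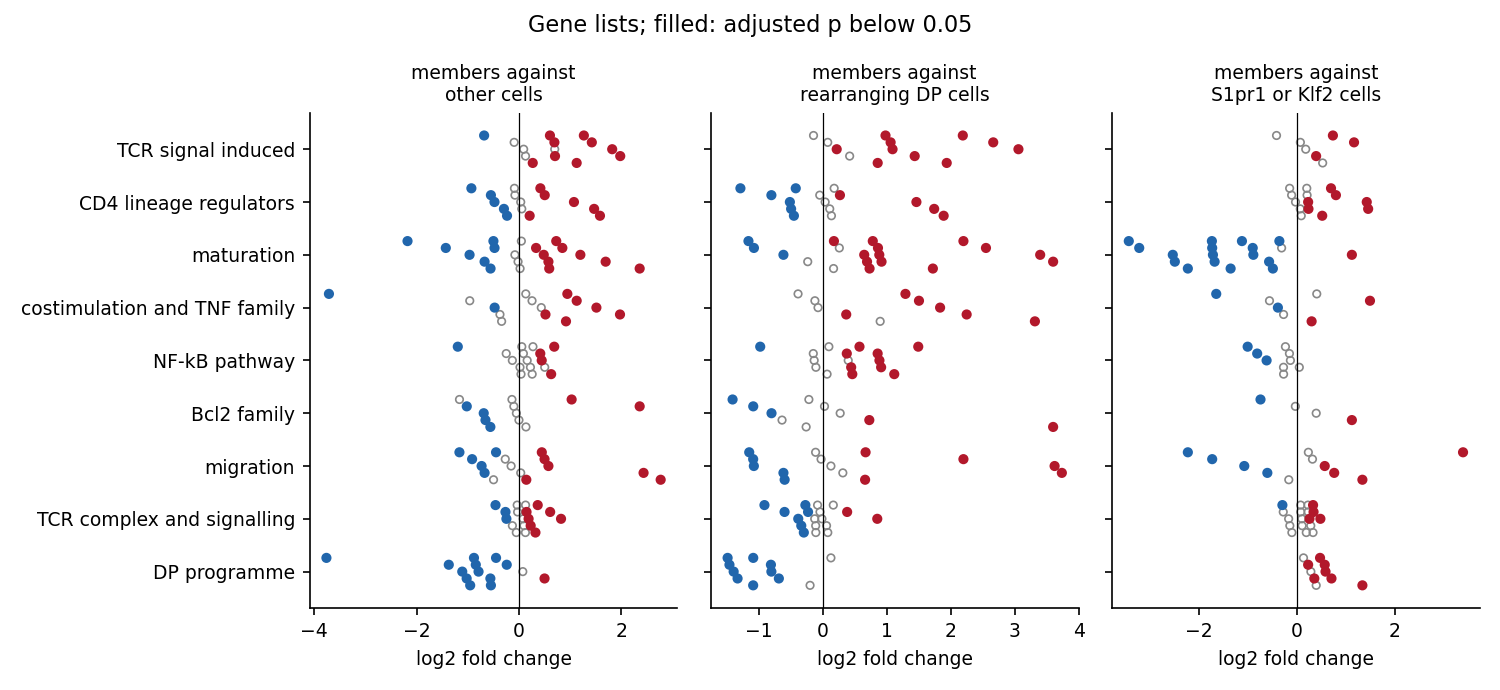
Log2 fold change (x axis) of the genes of 9 lists (y axis), 1 point per gene, for the members against the other cells, the rearranging DP cells and the S1pr1 or Klf2 cells. Filled points passed an adjusted p of 0.05 (red higher, blue lower in the members), and the maturation list lay mostly to the right against DP cells and mostly to the left against S1pr1 or Klf2 cells.

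The comparison with DP cells asked how the members differ from the stage before selection. These 12715 cells were chosen by Rag1 and Rag2, which are left out of the counts. They also held no UMI of Zbtb7b, Cd40lg, Chl1, Runx3, Itgae or Foxp3 and at most 1 of Mki67 and Top2a. Of 9349 genes tested, 1390 (14.9%) were higher and 1410 (15.1%) lower in the members (29.9% in all), 4.9% were higher and 3.94% lower with no overlap, and the median log2 fold change was 0.00. In the WT samples alone the counts were 981 and 1004, and in the Mini samples alone 795 and 844. Of 13 receptor-induced genes tested 10 were higher and 0 lower (median 1.06), of 16 NF-kB genes 9 higher and 1 lower (median 0.42), of 10 costimulation genes 6 higher and 0 lower (median 1.10) and of 19 maturation genes 13 higher and 3 lower (median 0.73). Other lists were not mainly higher. Of 15 CD4 lineage regulators 4 were higher and 6 lower (median 0.04), of 18 genes of the receptor complex and its proximal signalling 2 and 7 (median -0.11), of 14 migration genes 5 and 5 (median 0.05), of 10 Bcl2 family genes 2 and 3 (median -0.24) and of 18 cytokine receptor and signalling genes 8 and 4 (median 0.16).

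Several genes that were low in DP cells were higher in the members. Prlr measured 0.743 to 5.15 CPM (median 1.73) in DP cells and 6.57 to 110.4 CPM (median 49.9) in the members (log2 fold change 4.56 ± 0.332, adjusted p = 2.78e-15). Izumo1r measured 0.221 to 5.15 CPM (median 2.43) in DP cells and 23.0 to 105 CPM (median 34.2) in the members (log2 fold change 4.03 ± 0.312), and Chn2 14.6 to 26.7 CPM (median 19.1) and 247 to 777 CPM (median 404) (log2 fold change 4.40 ± 0.153). For these 3 genes the classes did not overlap. Bcl2 went from 163 to 258 CPM (median 202) in DP cells to the member levels given above (log2 fold change 3.603 ± 0.115, adjusted p = 1.88e-27) and Il7r from 20.2 to 43.9 CPM (median 24.6) (log2 fold change 3.40 ± 0.147, adjusted p = 8.05e-23). The repressor gene Bach2, which keeps T cells quiescent, measured 1965 to 3064 CPM (median 2136) in the members and 184 to 338 CPM (median 273) in DP cells (log2 fold change 3.14 ± 0.102, adjusted p = 2.98e-27), and Samhd1, a nucleotide hydrolase, 97.7 to 324 CPM (median 214) and 13.6 to 43.2 CPM (median 24.1). Ccr7 (2.20 ± 0.167), Cd69 (2.19 ± 0.151), Egr2 (3.06 ± 0.414), Nab2 (2.67 ± 0.221), Relb (1.49 ± 0.247), Malt1 (1.12 ± 0.120) and Nfkb1 (0.91 ± 0.0856) were higher as well. The MHC class I genes H2-D1 (0.78 ± 0.147) and B2m (0.69 ± 0.145) were higher by less, and each lost its call in 1 setting.

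In the other direction, 9 of 11 DP programme genes outside Rag1 and Rag2 were lower. Arpp21 measured 1045 to 2924 CPM (median 2158) in the members and 4768 to 6376 CPM (median 5976) in DP cells (log2 fold change -1.49 ± 0.0838, adjusted p = 7.77e-19) and Dntt 137 to 397 CPM (median 299) and 584 to 847 CPM (median 744) (log2 fold change -1.33 ± 0.0965). Neither overlapped between the classes. Bmf, a pro-death gene (log2 fold change -1.41 ± 0.155), Themis (log2 fold change -0.91 ± 0.0605) and Bcl6 (log2 fold change -1.07 ± 0.107) were lower too. Both coreceptors were lower than in DP cells, Cd8a (log2 fold change -1.44 ± 0.107, adjusted p = 5.12e-15) without overlap and Cd4 (log2 fold change -0.49 ± 0.0582, adjusted p = 2.45e-09) in all 8 samples with overlap. Whether the fall of Cd8a was larger than that of Cd4 was not tested.

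The comparison with S1pr1 or Klf2 cells asked how the members differ from cells nearer to emigration. These are 227 cells with 2 or more UMIs of S1pr1 and Klf2 that held no UMI of Runx3, Itgae, B cell markers or dendritic and myeloid markers and met the conditions on Mki67, Top2a, Foxp3 and the genes of strong signals. No UMI of a CD4 lineage gene was asked for, so lineage and stage cannot be told apart in this comparison. Cd4 UMIs without Cd8 were present in 33.9% of them, both in 32.2%, Cd8 alone in 10.1% and neither in 23.8%. Among the members these shares were 32.2%, 40.0%, 6.55% and 21.2%. The class was formed after the values were seen because only 33 cells met the rule of the members while holding S1pr1 and Klf2 UMIs. Of 2956 genes tested, 247 (8.36%) were higher and 358 (12.1%) lower in the members (20.5% in all), 1.12% were higher and 3.79% lower with no overlap, and the median log2 fold change was 0.04. In the WT samples alone the counts were 142 and 316, and in the Mini samples alone 109 and 234. Of 18 maturation genes tested 16 were lower and 1, Bcl2, was higher (median -1.51).

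Ms4a4b, a surface protein of mature T cells, measured 34.5 to 102 CPM (median 54.7) in the members and 493 to 979 CPM (median 674) in the S1pr1 or Klf2 cells (log2 fold change -3.43 ± 0.147, adjusted p = 1.35e-27). Its relative Ms4a6b measured 19.7 to 82.8 CPM (median 37.0) and 313 to 541 CPM (median 376). Neither overlapped, so the members lay below every sample of the S1pr1 or Klf2 cells. The same held for Foxo1, the factor that drives Klf2 and Il7r (log2 fold change -1.73 ± 0.127, adjusted p = 2.05e-17), for Ccr7 (log2 fold change -1.73 ± 0.145), for H2-K1 (log2 fold change -2.49 ± 0.200), for Il6ra (log2 fold change -3.18 ± 0.282), for the Ras regulator Rasa3 (log2 fold change -2.75 ± 0.128) and for the interferon-induced Ifi213 (log2 fold change -3.87 ± 0.258). Il7r was lower in the members in all 8 samples, with overlap (log2 fold change -0.89 ± 0.126, adjusted p = 6.34e-08).

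Chemokine receptor and lineage factor genes were among those higher in the members. Hivep3 measured 609 to 1312 CPM (median 727) against 23.0 to 181 CPM (median 52.3) (log2 fold change 3.43 ± 0.168, adjusted p = 5.59e-25) and Ccr4 78.8 to 134 CPM (median 110.2) against 0 to 45.2 CPM (median 3.91) (log2 fold change 3.40 ± 0.410). Il17rb, an interleukin-25 receptor chain, measured 80.4 to 207 CPM (median 124) against 0 to 45.7 CPM (median 13.2), and Itm2a 270.0 to 482 CPM (median 401) against 58.7 to 219 CPM (median 135) (log2 fold change 1.51 ± 0.159). Ccr4 and Il17rb were thus at or near 0 in some samples of the S1pr1 or Klf2 cells. Of 14 CD4 lineage regulators tested 7 were higher and 0 lower, with Gata3 at 1.46 ± 0.167, Tox at 1.43 ± 0.0786 and Lef1 at 0.80 ± 0.0743. Of 10 DP programme genes tested 7 were higher, among them Ccr9 (1.34 ± 0.116), and 0 lower, while the DESeq2 Wald test called 2 of the 10. Nr4a1 (1.17 ± 0.167), Tnfsf11 (1.496 ± 0.315) and Bcl2 (1.13 ± 0.127, higher in 7 of 8 samples) were higher too. Of 16 cytokine receptor and signalling genes 9 were lower and 1 higher.

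The comparison with Runx3 or Itgae cells asked how the members differ from cells with CD8 lineage genes. These were 620 cells with 2 or more UMIs of Runx3 and Itgae, none of Zbtb7b, Cd40lg, S1pr1 and Klf2, and the same conditions on Mki67, Top2a, Foxp3 and the genes of strong signals. Dendritic and myeloid markers summed to 517 to 1464 CPM (median 757) in them, and 237 (38.2%) held a UMI of these or of B cell markers, against 178 members (25.4%) and 36.6% of all other cells. They are therefore not called CD8 lineage cells here, and log2 fold changes are given also against the 383 of them without such UMIs, in which all 17 of these markers are at 0 by choice. Levels, overlaps and adjusted p-values are those against all 620. Of 4232 genes tested, 337 (7.96%) were higher and 442 (10.4%) lower in the members (18.4% in all), 1.75% were higher and 2.03% lower with no overlap, and against the marker-free cells 225 (6.14%) and 276 (7.53%) of 3663 (13.7% in all). In the WT samples alone the counts against all 620 cells were 251 and 347, and in the Mini samples alone 189 and 270.

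The lineage genes differed against both sets. Cd5 measured 505 to 901 CPM (median 586) in the members and 76.8 to 235 CPM (median 153) in the Runx3 or Itgae cells (log2 fold change 1.93 ± 0.118, adjusted p = 1.38e-17, and 1.98 ± 0.141 against the marker-free cells). Gata3 measured 229.8 to 372 CPM (median 287) and 38.3 to 172 CPM (median 93.5) (log2 fold change 1.60 ± 0.139, adjusted p = 9.91e-13, and 1.54 ± 0.167). Neither overlapped. Itm2a (3.00 ± 0.144, and 2.98 ± 0.166), Ccr4 (2.81 ± 0.241, and 2.51 ± 0.280), Tox (1.71 ± 0.0801, and 1.57 ± 0.0766), Lef1 (1.44 ± 0.0735, and 1.24 ± 0.0799) and Bcl2 (1.16 ± 0.0771, and 0.84 ± 0.0755) were higher in the members. Here Cd4 was higher as well (log2 fold change 0.71 ± 0.0884, adjusted p = 1.76e-08, and 0.76 ± 0.110), and Cd8a (-0.90 ± 0.122, and -1.04 ± 0.1298) and Cd8b1 (-0.72 ± 0.115, and -0.85 ± 0.125) were lower. Among cells with 4000 UMIs or more Cd8b1 lost its call (-0.33, adjusted p = 0.174). Of 15 CD4 lineage regulators 8 were higher and 0 lower, and 7 and 0 against the marker-free cells.

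Maturation genes were lower in the members against this class too, 12 of 17 tested with 2 higher, and 14 with 1 higher against the marker-free cells. Ms4a4b measured 34.5 to 102 CPM (median 54.7) against 206 to 380.5 CPM (median 255) (log2 fold change -2.14 ± 0.135, adjusted p = 2.90e-17, and -2.60 ± 0.145). H2-K1, a classical MHC class I gene, measured 34.5 to 82.8 CPM (median 40.9) against 111 to 269 CPM (median 233) (log2 fold change -2.26 ± 0.152, adjusted p = 2.67e-16, and -2.24 ± 0.185). Both groups of samples stood apart for these genes. Ccr7 was lower (-1.04 ± 0.141, and -1.39 ± 0.146). Cd74, the invariant chain of MHC class II, was among the largest differences downward against all 620 cells (-5.43 ± 0.236) and is one of the markers absent from the marker-free cells.

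A further comparison was made within the members, by UMIs of genes of the rule itself. The 342 members with a Zbtb7b or Cd40lg UMI were set against the 360 with Chl1 UMIs only, a split formed after the values were seen. The first held more UMIs per cell (median 4071.5 against 2983), and the part of depth in the differences was not tested. By the rule each Chl1-only member held at least 3 Chl1 UMIs, while the other members could hold fewer. Genes whose level goes with that of Chl1 can therefore differ between the sets through the choice. The p-values of this comparison do not allow for that, and its part was not tested. Of 2681 genes tested, 45 (1.68%) were higher and 32 (1.19%) lower in the Zbtb7b or Cd40lg positive members (2.87% in all), with a median log2 fold change of 0.00. In the WT samples alone the counts were 21 and 15, and in the Mini samples alone 15 and 10. Without the sample as block they were 22 and 10.

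Of 11 maturation genes tested 5 were higher in the Zbtb7b or Cd40lg positive members and 0 lower (median 0.44), and the DESeq2 Wald test called 4. Il7r measured 290.3 to 529 CPM (median 370.2) in them and 86.6 to 345 CPM (median 188) in the Chl1-only members (log2 fold change 0.97 ± 0.140, adjusted p = 2.14e-07), Ccr7 98.8 to 246 CPM (median 154) and 15.8 to 138 CPM (median 55.4) (log2 fold change 1.37 ± 0.231, adjusted p = 1.10e-05) and Gimap4 111 to 323 CPM (median 206) and 26.0 to 158 CPM (median 75.9) (log2 fold change 1.25 ± 0.196, adjusted p = 1.85e-06). These ranges overlapped, yet the direction was the same in all 8 samples. Ccnd2, a D-type cyclin, measured 157 to 355 CPM (median 243) and 16.4 to 208 CPM (median 80.0) (log2 fold change 1.62 ± 0.202, adjusted p = 2.00e-09). Inpp4b, a lipid phosphatase, measured 2835 to 5367 CPM (median 3613) and 1672 to 2605 CPM (median 2134) (log2 fold change 0.74 ± 0.0746, adjusted p = 4.89e-13) and was the only one of the tested genes that was higher with no overlap (0.0373%). Itgb3 (1.29 ± 0.260), Bcl2 (0.44 ± 0.0787) and Runx1 (0.34 ± 0.0771) were higher too.

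Tox, Ccr9 and Ccr4 were among the genes higher in the Chl1-only members. Slc9a9, a sodium-proton exchanger, measured 1554 to 2817 CPM (median 2293) in the Zbtb7b or Cd40lg positive and 3118 to 4897 CPM (median 3372) in the Chl1-only members (log2 fold change -0.69 ± 0.0697, adjusted p = 4.89e-13), and the LIM protein gene Lmo4 88.8 to 159 CPM (median 123) and 182 to 398 CPM (median 268) (log2 fold change -1.08 ± 0.168, adjusted p = 1.85e-06). Neither overlapped, and no other tested gene was lower with no overlap (0.0746%). Tox (log2 fold change -0.50 ± 0.0676, adjusted p = 4.75e-08), Ccr9 (log2 fold change -0.55 ± 0.0967, adjusted p = 2.42e-05), Il17rb (log2 fold change -0.90 ± 0.197, adjusted p = 0.00138), Bcl11b (log2 fold change -0.35 ± 0.0745, adjusted p = 9.25e-04), Cdk6 (log2 fold change -0.63 ± 0.156, adjusted p = 0.00646) and Ccr4 (log2 fold change -0.86 ± 0.219, adjusted p = 0.00904) were lower in the Zbtb7b or Cd40lg positive members in all 8 samples. The calls for Ccr4 and Cdk6 were lost when WT sample 3 was left out, that for Ccr4 also without WT sample 4 or without Mini sample 1-A. Without the sample as block the calls for Tox, Il17rb, Bcl11b, Cdk6, Ccr4, Bcl2 and Runx1 were lost. The WT samples alone did not keep those for Itgb3, Bcl2, Il17rb, Cdk6 and Bcl11b, the Mini samples alone those for Ccr4, Ccr9, Cdk6 and Runx1, and DESeq2 those for Ccr4 and Cdk6. Neither coreceptor passed the test, with Cd4 at 584 to 837 CPM (median 721) and 483 to 742 CPM (median 658) (log2 fold change 0.15 ± 0.100, adjusted p = 0.616) and Cd8a at 80.6 to 349 CPM (median 278) and 129.8 to 431 CPM (median 220.2) (log2 fold change -0.02 ± 0.149, adjusted p = 0.983). Of 7 receptor-induced genes tested 0 passed by edgeR's quasi-likelihood test and 0 by the DESeq2 Wald test, 2 had an unadjusted p under 0.05, and the median log2 fold change was 0.20 against 0.00 over all genes tested. These 2 were Nr4a1, an immediate early nuclear receptor of T cell receptor signals (log2 fold change 0.48 ± 0.151, adjusted p = 0.0658), and Cd5, a negative regulator of that signal (log2 fold change -0.24 ± 0.101, adjusted p = 0.266).

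Set in the order DP cells, Chl1-only members, Zbtb7b or Cd40lg positive members and S1pr1 or Klf2 cells, mean levels can be read side by side. The genes were chosen with the calls above known, so the direction of Il7r, Ccr7 and Ccnd2 over the last 3 classes follows from the choice. Il7r stood at 27.8 ± 8.27, 194 ± 81.6, 386 ± 85.5 and 562 ± 155 CPM (SD, n = 8), Ccr7 at 24.2 ± 7.23, 58.6 ± 40.2, 162 ± 46.3 and 370 ± 101 CPM and Ccnd2 at 28.1 ± 7.96, 88.8 ± 60.0, 245 ± 59.7 and 420 ± 87.3 CPM. Neighbouring classes differed by more than the larger of their SDs, except DP cells and Chl1-only members in Ccr7. Bcl2 did not follow them, at 209.7 ± 32.8, 2152 ± 454, 3027 ± 1124 and 1227 ± 476 CPM. Ms4a4b stood at 37.2 ± 12.1, 43.8 ± 21.5, 71.0 ± 28.6 and 672 ± 150 CPM, so that its largest step lay between the members and the S1pr1 or Klf2 cells. Tox, Ccr4 and Ccr9 peaked in the Chl1-only members, Tox at 1417 ± 108, 6370 ± 1211, 4533 ± 972 and 2009 ± 361 CPM. Itm2a did not separate the members, at 386 ± 60.5 and 397 ± 70.2 CPM, between 25.8 ± 6.69 CPM in DP cells and 135 ± 62.7 CPM in S1pr1 or Klf2 cells. The order of the classes is that of the genes that chose them, and it was not measured in time.

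**Figure D5:**
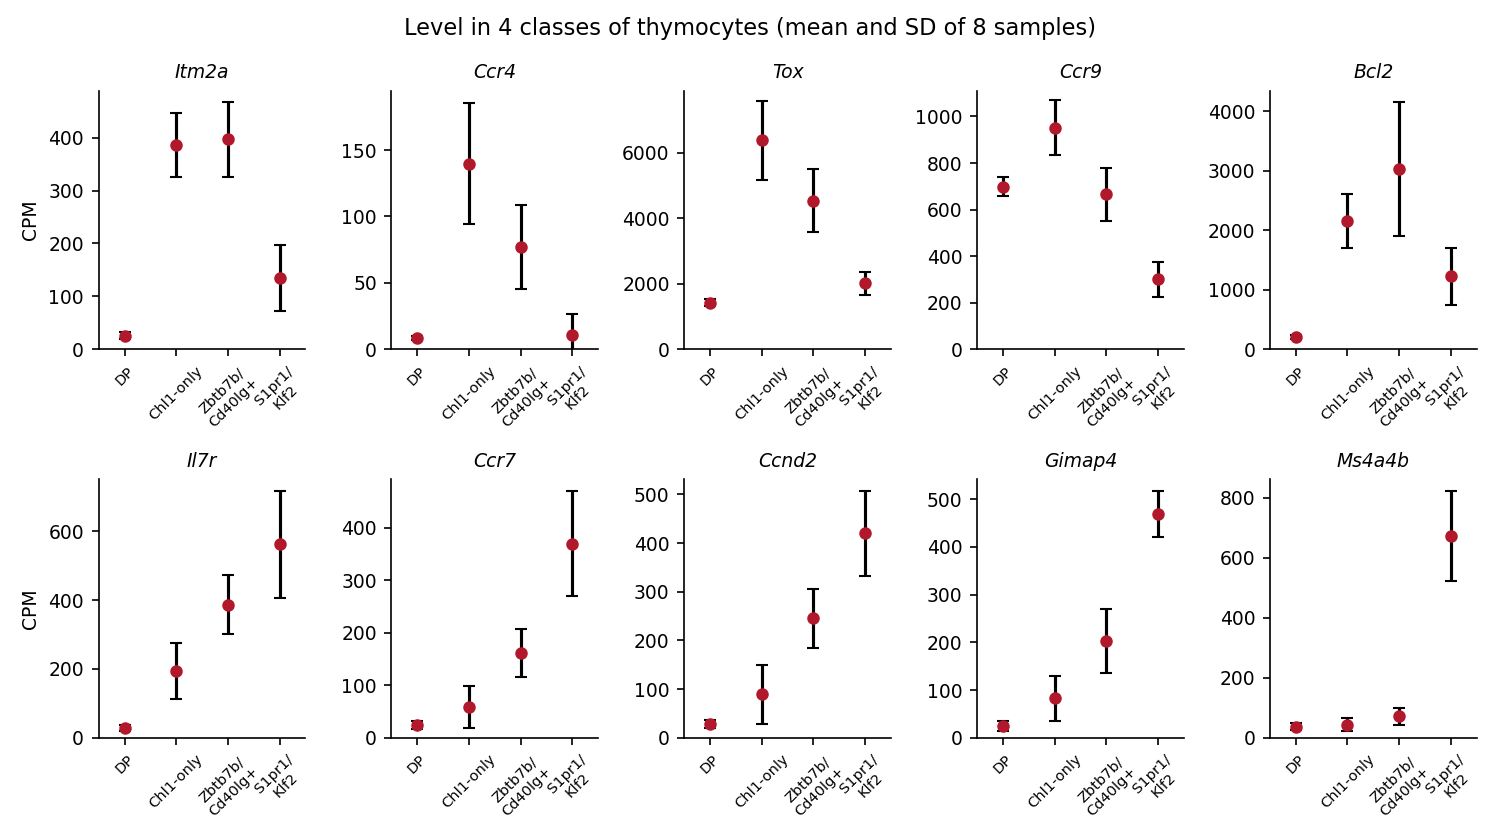
Level (y axis, CPM, mean and SD of 8 samples) of 10 genes in rearranging DP cells, Chl1-only members, Zbtb7b or Cd40lg positive members and S1pr1 or Klf2 cells (x axis). Itm2a was high in both sets of members, Tox, Ccr4 and Ccr9 were highest in the Chl1-only members, and Il7r, Ccr7, Ccnd2 and Gimap4 increased from class to class.

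The differences of the members from the other cells were compared between the kits, and differences between lobes were not tested. Mice and experiment differ along with the kit and cannot be told apart from it. A test of the class by kit term called 2 of 12712 genes (0.0157%, edgeR quasi-likelihood test, adjusted p below 0.05) and 577 (4.54%) at an unadjusted p below 0.05. The 2 genes, Zbtb16 and Peak1, are named after their values were seen and are described at the end. The log2 fold changes in the WT and the Mini samples were 2.38 and 2.32 for Bcl2, 1.61 and 1.54 for Tox, 1.06 and 1.07 for Gata3, 1.72 and 1.63 for Il7r and -1.08 and -1.17 for Cd8a. In its members WT sample 1 stood apart from the other WT samples, with the highest Bcl2 (4058 CPM), Lef1 (5478 CPM), Cd5 (901 CPM) and Maml2 (6600 CPM) and the lowest Cd8a (98.7 CPM) and Rag1 of all 8 samples. The other cells of WT sample 1 were also the highest of all 8 samples in Bcl2 (641 CPM, the other samples up to 546 CPM), Lef1 (1499 CPM, up to 1458 CPM), Cd5 (341 CPM, up to 291 CPM) and Maml2 (1031 CPM, up to 854 CPM), but not the lowest in Cd8a or Rag1. Its Zbtb7b or Cd40lg positive members were 41 of 70, against 37 of 118, 60 of 109 and 78 of 151 in WT samples 2, 3 and 4. In the 5 comparisons of classes, the counts of genes without each sample in turn stayed within 1.5 times of those given.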

How the data were processed

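Whole thymic lobes were dissociated enzymatically, fixed and barcoded by split-pool ligation in 2 kits. The authors deposited UMI counts per gene and cell in 1 matrix per kit, made with the split-pipe pipeline on an mm10 index of Ensembl genes, with UMIs collapsed, cells called and the sublibraries of a kit combined. For the pipeline version, the threshold of the cell calls and the annotation release, the sources used here give no value. Cells were assigned to the 8 tissue samples by the sample names and first-round wells in the deposited cell tables. The sample names of the WT table do not state the tissue, so the thymic wells are those that the rule of the members names. The 16 other samples of the WT library and the droplet libraries were not used here. Of 57010 gene IDs, 52029 (91.3%) matched GENCODE M21 (GRCm38).

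Cells with 500 to 25000 UMIs were kept, and no doublet caller was run. The paper called doublets by computation in both kits, at a higher rate in the WT library, and removed them. Here such cells can be among the members and the comparators, and their part in the values was not tested. UMI counts were summed per tissue sample and class, where a class held 10 or more cells, after 3 ribosomal RNA genes were left out. Sums were compared with edgeR 4.0.16 (R 4.3.3) by the quasi-likelihood test with TMM scaling, filterByExpr at a minimum count of 10, and the tissue sample as block, because the classes of 1 sample come from the same suspension. Errors after a log2 fold change are standard errors, those after a mean are SDs. Adjusted p-values are Benjamini-Hochberg values over all genes tested. The 14 genes of the rule were not tested. Depth in the members was 171882 to 640453 UMIs per sample, and 19903154 to 83675437 UMIs in the other cells.

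The members and the gene lists were chosen with earlier results of these data known. Genes are named as members of the lists, or from the 15 largest rises and 10 largest falls among genes that passed the test, moved the same way in every sample, and held at least 100 UMIs in the members (for falls, in the comparator), without predicted genes. The planned comparison with 33 mature CD4 lineage cells could not be fitted, as no sample held 10 of them, and a split of 44 members with Zbtb7b or Cd40lg but no Chl1 had 10 cells in 2 samples only. Both were replaced by comparisons chosen after seeing the data, as was the set of Runx3 or Itgae cells without antigen-presenting cell markers. The fits were tested on simulated counts, in which 2-fold changes were recovered in 96% of cases for the comparison with the other cells, 93% for DP cells, 94.5% for Runx3 or Itgae cells, 81.6% for S1pr1 or Klf2 cells (5.22% of its calls being false) and 91.9% for the split of the members. In these simulations the changed genes held at least 100 UMIs in the first class of the comparison. Recovery was counted among those that passed the filter on low counts. The dispersion was set by hand and no differences between lobes were simulated. The rates therefore do not cover genes with fewer UMIs or the real spread between lobes. Sequences are from the RefSeq tables of GRCm38.p6. DESeq2 1.42.0 served as the other count test, and tables, intervals and figures were made in Python 3.11.15 (pandas 2.3.3, scipy 1.17.1, numpy 2.4.6 and matplotlib 3.10.9). Values of some genes of the lists are not reported here, though the counts over the lists include them.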

Additional observations from a re-analysis of the deposited data

Results flagged for a closer look

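In the WT samples, the members of 1 sample stood far from those of the other samples for 3 of the genes plotted. Bcl2 was 4058 CPM in WT sample 1 and 2037 to 2268 CPM in the other WT samples, and in the other cells 641 CPM against 413 to 458 CPM. Cd5 was 901 CPM in WT sample 1 and 505 to 571 CPM in the others, and in the other cells 341 CPM against 234 to 256 CPM. Cd4 was 539 CPM in WT sample 4 and 653 to 659 CPM in the others, and in the other cells 459 CPM against 522 to 658 CPM. In all, 26 groups of 4 samples were examined in this way, and chance marks about 1 in 20 of such groups. WT sample 1 held 70 members, with the highest median depth of the 8 samples.

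The difference between members and other cells differed between the kits for 2 genes (edgeR interaction term). Zbtb16, the factor PLZF of innate-like T cells, had a log2 fold change that was 3.25 higher in the Mini than in the WT samples (adjusted p = 4.87e-08). Of its 67 UMIs in members, 51 came from 1 cell of Mini sample 1-B, which held 15732 UMIs and 1 UMI each of Zbtb7b, Cd40lg and Chl1. Without Mini sample 1-B the difference was -0.33 (adjusted p = 1.00).

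Peak1, a cytoskeleton-linked pseudokinase, had a difference of -0.90 on the same scale, the Mini samples being lower (adjusted p = 2.06e-07). In 2 first-round wells of the Mini kit, A9 and A12, Peak1 reached 6644 and 2490 CPM over all cells and 5195 and 2234 CPM in members, against 125 to 332 CPM over all cells of the 18 other wells. Without Mini sample 2-A the difference was -0.60 (adjusted p = 0.254).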

How the results depend on the processing

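The share of members, 1.28% on average, was 2.00% with 2 UMIs or more of the 3 genes, 0.889% with 4 or more and 0.214% without Chl1, and 1.20% to 1.33% with each sample left out. Against the other cells, 2931 genes differed (1072 higher, 1859 lower). The counts were 1507 (518, 989) in the Mini samples alone, 1465 (430, 1035) with cells thinned to 1000 UMIs, 641 higher in cells with 4000 UMIs or more, and 2579 to 2850 (882 to 1063, 1662 to 1787) with each sample left out. Against DP cells, 2800 (1390, 1410) became 1639 (795, 844), 1564 (700, 864), 1365 (682, 683) in the same 3 settings and 2488 to 2768 (1202 to 1335, 1282 to 1433) with each sample left out. Against Runx3 or Itgae cells, 779 (337, 442) became 494 (215, 279) with DESeq2, 1362 (893 lower) without a filter on low counts, 459 (189, 270) in the Mini samples, 361 (158, 203) at 4000 UMIs or more, 263 (119, 144) with thinning, 501 (276 lower) with marker-free comparator cells, and 624 to 788 (269 to 342, 355 to 446) with each sample left out. Against S1pr1 or Klf2 cells, 605 (247, 358) became 343 (109, 234) in the Mini samples, 161 (52, 109) at 4000 UMIs or more, 186 (78, 108) with thinning, and 518 to 584 (188 to 239, 322 to 364) with each sample left out. Genes higher there were 143 with DESeq2, 404 without a filter and 142 in the WT samples. Between the 2 sets of members, 77 (45, 32) became 37 (24, 13) with DESeq2, 36 (21, 15) in the WT samples, 25 (15, 10) in the Mini samples, 32 (22, 10) without the replicate block, and 60 to 81 (36 to 44, 24 to 37) with each sample left out. Genes whose difference depended on the kit numbered 1 to 4 (1 to 2, 0 to 2) with each sample left out. Without the replicate block the other counts were 2638, 2698, 573 and 505, within 1.5 times of those with the block. The lower counts of the Mini samples, thinned cells and deep cells rest on fewer samples, UMIs or cells by construction.

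The direction turned in 2 named genes, Cd4 against the other cells with thinning (-0.28, adjusted p = 0.0186) and the Zbtb16 kit difference without Mini sample 1-B (-0.33, in a range of -0.33 to 5.44 with each sample left out). For the named genes under the other settings, 1459 values against the other cells stayed on their side of the threshold and 38 lost their call, 769 and 2 against DP cells (B2m, H2-D1), 387 and 1 against Runx3 or Itgae cells (Cd8b1), 419 and 0 against S1pr1 or Klf2 cells and 280 and 23 between the sets of members. Of these, Fos lost its call in 12 settings. The cause was not tested. In both kits the number of UMIs per cell limits which genes can be read, and helper cytokines were below the filter.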
